A study of Mus musculus with 8 samples.

Results

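The small nucleolar RNA genes described here were the genes of the deposited count table whose symbol starts with Snora or Snord followed by a digit and which had 10 or more counts summed over the 8 libraries. The table held 141 genes with such a symbol, of which 36 reached 10 counts, 18 had 1 to 9 counts and 87 had 0. The 36 members, out of 55421 genes in the table, comprised 22 box C/D genes (Snord) and 14 box H/ACA genes (Snora), with annotated lengths of 64 to 238 nt. These classes follow the symbols, and the annotation lists 1 member, Snord43, as a microRNA gene. The members just inside the limit were Snord42a with 10 counts, Snord93 with 11 and Snord4a with 12, and the genes just outside it were Snord15a, Snord42b and Snord58b with 9 counts each and Snord82 with 7. Small nucleolar RNA genes under other symbols were not members: 1367 further genes of the table were annotated as this type, and 66 of them had 10 or more counts.

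Small nucleolar RNAs guide the chemical modification of ribosomal and spliceosomal RNA, box C/D RNAs directing ribose methylation and box H/ACA RNAs directing pseudouridylation, and a few act in cutting the ribosomal RNA precursor. Most mammalian ones lie in introns of host genes and are released by splicing, debranching of the intron and trimming of both ends, whereas a few are transcribed from their own promoters. Their mature forms carry no poly(A) tail, while the libraries here were primed with oligo(dT), which anneals to poly(A) tails and can also anneal to stretches of A within an RNA. The counts therefore do not separate mature RNA from polyadenylated or unspliced precursors, and these cannot be told apart in the table.

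The cells were E14 mouse embryonic stem cells of 129/Ola background, grown in serum with LIF on gelatin, and all groups, controls included, lacked the miR-290-295 cluster, a set of microRNAs abundant in these cells. They were transfected for 36 h at 5 nM with siPOOLs, pools of short interfering RNAs, against Tfap4 (siTfap4), Wiz (siWiz) or Zic2 (siZic2), which encode transcription factors, or with a negative control pool (siNeg), with 2 libraries per group described as biological duplicates. The sources used here do not say whether the knockout line was a single clone. QuantSeq 3′ FWD libraries were made from 500 ng of RNA. Each siPOOL group was compared with the same siNeg libraries, so the 3 comparisons share their controls.

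Library totals lay between 8326675 and 13788856 counts. Tfap4 stood at 13.9 ± 2.61 CPM (counts scaled to a common library total) in siTfap4 and 35.3 ± 2.60 CPM in siNeg (SD, n = 2 each), a log2 fold change of -1.34 (adjusted p = 0.00417, edgeR). Wiz stood at 18.2 ± 2.06 CPM in siWiz and 48.0 ± 2.65 CPM in siNeg (log2 -1.40, adjusted p = 0.708, edgeR), and Zic2 at 1.99 ± 0.226 CPM in siZic2 and 3.35 ± 1.61 CPM in siNeg (log2 -0.75, adjusted p = 1.00, edgeR). The single siNeg libraries had 4.49 and 2.21 CPM of Zic2, and those of siWiz 2.59 and 2.01 CPM. In siTfap4, Wiz and Zic2 had log2 fold changes of -0.54 and 0.78 (adjusted p = 0.131 and 0.230, edgeR). The 8 embryonic stem cell markers summed to 2857 to 3369 CPM over the libraries, against 7.62 to 13.2 CPM for 7 fibroblast markers and 17.3 to 48.7 CPM for 5 primitive endoderm markers. The primitive endoderm sum lay at 31.9 to 48.7 CPM in siTfap4 and 25.0 to 28.4 CPM in siNeg, the fibroblast sum at 7.62 to 9.67 CPM in siTfap4 and 11.3 to 13.2 CPM in siNeg, and none of the markers was at 0 in all libraries. Their part in the results below was not tested.

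The sequences below are those of 5 members on which the comparisons turn, as the GENCODE M21 annotation of GRCm38 gives them, written 5′ to 3′ as DNA. In the Snord sequences the capitals mark the match to the C box letters searched (TGATGN) and to the D box letters CTGA within the last 20 bases. In the Snora sequences they mark the ACA that stands 3 bases from the end. Snord89 (chr1:39548745-39548854, minus strand) and Snord72 (chr15:5118404-5118484, plus strand) are shown because they passed the test in siTfap4, Snora30 (chr7:127527874-127528003, plus strand) because it passed it with another count model, Snora73b (chr4:132352322-132352526, minus strand) because it held most of the counts, and Snord49b (chr11:62603079-62603150, plus strand) because it holds the longest run of A.
Snord89: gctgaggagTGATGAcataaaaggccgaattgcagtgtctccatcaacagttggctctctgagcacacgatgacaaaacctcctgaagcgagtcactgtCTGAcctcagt
Snord72: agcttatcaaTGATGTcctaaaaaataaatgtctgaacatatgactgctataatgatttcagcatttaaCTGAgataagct
Snord49b: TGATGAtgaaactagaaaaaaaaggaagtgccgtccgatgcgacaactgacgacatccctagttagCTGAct
Snora73b: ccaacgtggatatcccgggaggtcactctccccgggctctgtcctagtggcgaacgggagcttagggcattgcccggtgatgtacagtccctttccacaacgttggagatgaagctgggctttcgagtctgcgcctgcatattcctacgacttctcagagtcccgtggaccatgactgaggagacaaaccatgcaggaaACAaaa
Snora30: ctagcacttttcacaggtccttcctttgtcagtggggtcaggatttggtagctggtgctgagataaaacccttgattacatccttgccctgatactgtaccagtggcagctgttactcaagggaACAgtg

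On the strand of the gene, TGATGN was found in 22 of 22 Snord members and in 93.9% of the 99 Snord genes that matched the symbol rule, and CTGA within the last 20 bases in 22 of 22 members and 98% of the 99. ACA at 3 bases from the end was found in 12 of 14 Snora members and 83.3% of the 42 Snora genes of the symbol rule. Since priming can occur at A stretches, runs of A were counted as well: a run of 6 or more A occurred in 2 of 36 members, Snord49b and Snord72, and in 2.84% of the 141 genes. A run of 5 or more A occurred in 4 of 36 members and 8.51% of the 141 genes. The bases downstream of the members were not examined.

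The members were unevenly placed in the annotation. Of the 141 genes, 64 overlapped an exon of another gene on the same strand, and none of these reached 10 counts: 61 had 0 counts, 3 had 1 to 9, and together they held 15 counts. Of the 70 genes inside an intron of a gene on the same strand, 31 were members (44.3%), and the 70 held 11797 counts. Of the 7 genes with no gene around them on that strand, 5 were members (71.4%), and the 7 held 2972 counts. This place rests on GENCODE M21: RefSeq, whose table used here gives no strand, has a gene around 3 of those 5 members, which hold 2466 counts. How the authors assigned reads that overlap 2 features is not given in the sources used here, and its part in this split was not tested.

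**Figure D1:**
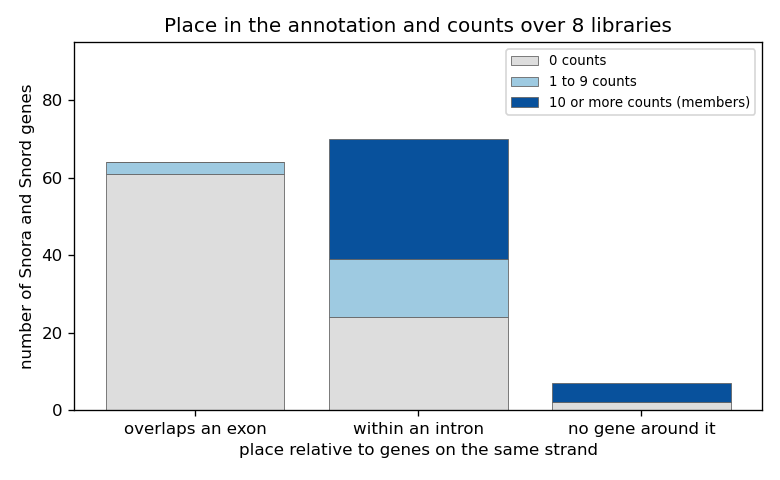
Number of Snora and Snord genes (vertical axis, 141 in all) by place relative to genes on the same strand (horizontal axis), stacked by the counts summed over 8 libraries. The bar of 64 genes that overlap an exon has no member, while 31 of 70 genes inside introns and 5 of 7 genes with no gene around them were members.

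The 31 intronic members lay in 27 host genes, and 7 members shared a host with another member. Ribosomal protein genes hosted 11 of them. The 5 members with no host by this rule were Snord104, Snord118, Snora57, Snora17 and Snord13. RefSeq places Snord104 within Gm36220, Snora57 within Lbhd1 and 5730408K05Rik, and Snora17 within Snhg7. GENCODE M21 has Lbhd1 on the strand opposite to Snora57, so Lbhd1 is not a host by the rule used here. For Snora73b RefSeq has Snhg3 alone, for Snora30 Srcap, and for Snord89 no gene around it, so these hosts depend on the annotation. Snord118 (U8), which takes part in processing of the large-subunit ribosomal RNA, and Snord13, which in human cells guides acetylation of the small-subunit ribosomal RNA, are independently transcribed in mammals.

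Snora73b (U17, ENSMUSG00000065353), a box H/ACA RNA that acts in processing of the small-subunit ribosomal RNA precursor, held 7852 of the members' 14712 counts, or 53.4%. It had 105 and 119 CPM in siTfap4, 83.5 and 122 CPM in siWiz, 64.6 and 106 CPM in siZic2, and 52.5 and 119 CPM in siNeg. The groups overlapped, and the siNeg libraries stood further apart than those of any siPOOL group. The fitted log2 fold changes were 0.38 (SE 0.35) in siTfap4, 0.26 (SE 0.35) in siWiz and -0.01 (SE 0.35) in siZic2, with adjusted p = 0.479, 1.00 and 1.00 (edgeR's quasi-likelihood test, adjusted by Benjamini and Hochberg's method across the 14647 genes tested). Snora73b differs little in sequence from Snora73a (98% identity), which had 1 count. How reads that fit both genes were counted is not given in the sources used here.

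Next in level were Snord104, Snord89, Snora57, Snora31 and Snord13. Snord104 (chr11:106500993-106501062, plus strand) had 14.5 and 15.1 CPM in siTfap4, 26.2 and 24.4 CPM in siWiz, 20.9 and 20.4 CPM in siZic2, and 14.3 and 23.0 CPM in siNeg. Both siWiz libraries lay above both siNeg libraries, with a log2 fold change of 0.44 (SE 0.27, adjusted p = 1.00, edgeR) that was not called. Its log2 fold changes in siTfap4 and siZic2 were -0.33 (SE 0.27, adjusted p = 0.433) and 0.15 (SE 0.27, adjusted p = 1.00), and those groups overlapped siNeg.

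Snora57 (chr19:8888538-8888685, minus strand) had 4.46 and 7.97 CPM in siTfap4, 7.22 and 7.54 CPM in siWiz, 6.72 and 7.42 CPM in siZic2, and 5.57 and 8.65 CPM in siNeg. All 3 siPOOL groups overlapped siNeg, and the log2 fold changes were -0.19 (SE 0.37), 0.06 (SE 0.36) and -0.01 (SE 0.36). Gm26132, which is 95.9% identical to Snora57, had 114 counts, so these values are uncertain where reads fit both. Snora31 (chr14:75847905-75848034, plus strand), the mouse counterpart of a gene in which human mutations have been linked to herpes simplex encephalitis, had 4.22 and 5.04 CPM in siTfap4, 8.47 and 9.36 CPM in siWiz, 7.90 and 6.24 CPM in siZic2, and 4.74 and 7.11 CPM in siNeg. Only siWiz did not overlap siNeg, and none of its log2 fold changes of -0.35 (SE 0.35), 0.59 (SE 0.33) and 0.26 (SE 0.34) passed the test (adjusted p = 0.516, 1.00 and 1.00, edgeR).

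Per length, the order of the highest members was partly different. Mean levels per 100 nt of RNA were 47.0 CPM for Snora73b, 28.4 CPM for Snord104, 11.8 CPM for Snord89, 5.84 CPM for Snord49b, 5.55 CPM for Snord13, 5.10 CPM for Snora31 and 4.69 CPM for Snora57. A 3′ tag method yields few tags per molecule whatever the length, so this order is a description of these counts.

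**Figure D2:**
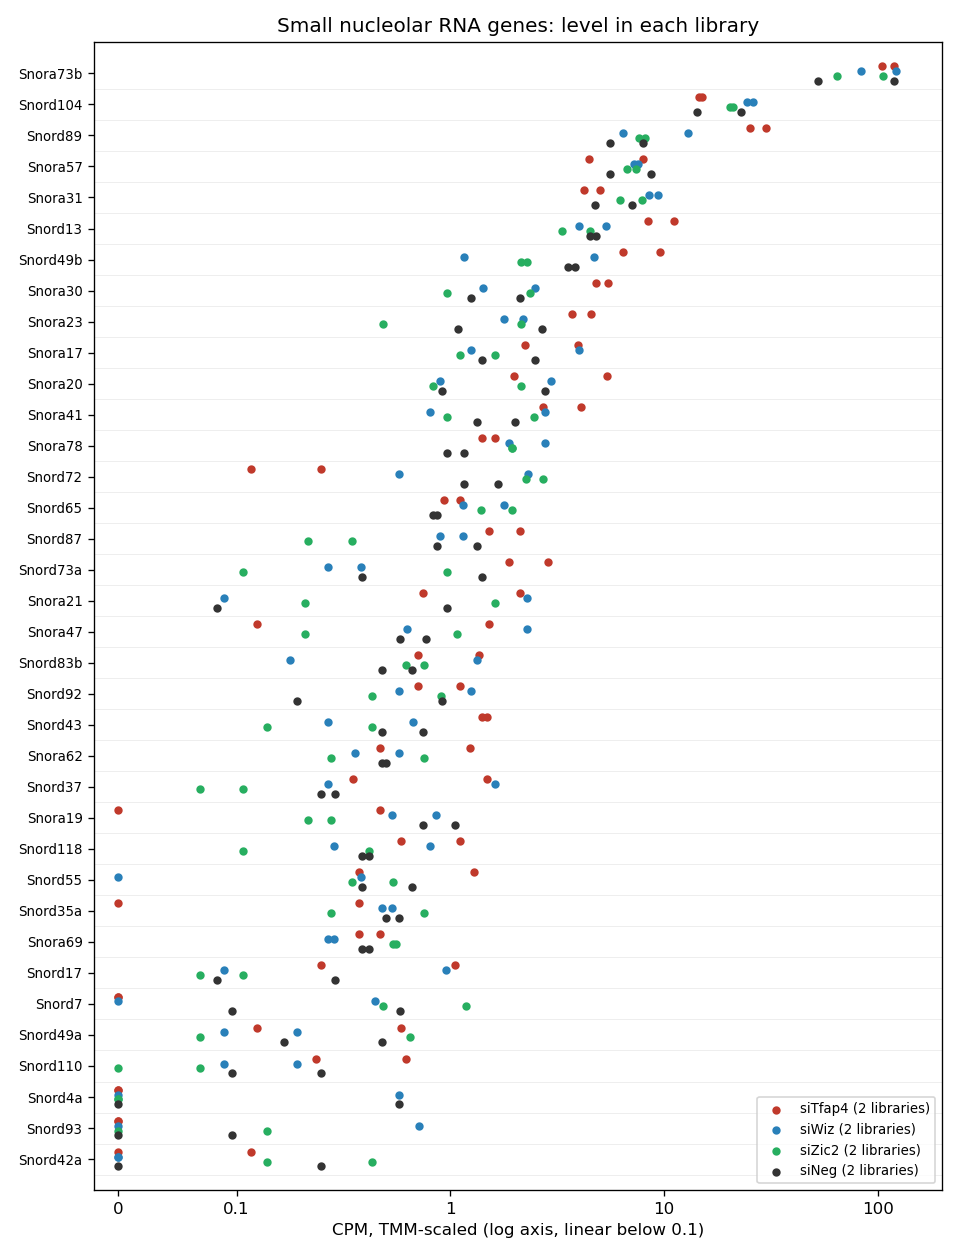
TMM-scaled CPM (horizontal, logarithmic above 0.1 and linear below) of the 36 members (rows, highest mean at the top) in each library, with 1 point per library and 2 libraries per group. The siTfap4 points of Snord89, at 25.2 and 30.0 CPM, lie apart from those of all other libraries, and the siTfap4 points of Snord72 lie below those of all other libraries.

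After Tfap4 knockdown, Snord89 rose and Snord72 fell, and no other member passed the test. That is 1 of 24 tested members called higher, against 4.24% of the 14647 genes tested, and 1 of 24 called lower, against 11.7% of them. In either direction, 15.9% of all genes tested were called. The 12 other members, with totals of 10 to 46 counts, did not reach the expression filter.

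Snord89 (ENSMUSG00000077704), a box C/D RNA gene, had 25.2 and 30.0 CPM in siTfap4, 6.42 and 13.0 CPM in siWiz, 8.11 and 7.64 CPM in siZic2, and 7.98 and 5.57 CPM in siNeg. These rest on 203 and 256 counts in siTfap4 and 96 and 58 counts in siNeg. Both siTfap4 libraries lay above all 6 others. The means were 27.6 ± 3.43 CPM in siTfap4 and 6.78 ± 1.70 CPM in siNeg (SD, n = 2 each), a 4.06-fold difference (log2 2.02, SE 0.34, adjusted p = 0.00256, edgeR), and the adjusted p stayed at 0.0192 or below when any library was left out. In siWiz and siZic2 its log2 fold changes were 0.51 (SE 0.35) and 0.21 (SE 0.35), each with adjusted p = 1.00.

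Gm15832, the gene model whose intron holds Snord89, was not called. It had 1.36 and 1.64 CPM in siTfap4, 3.30 and 2.58 CPM in siWiz, 2.84 and 6.67 CPM in siZic2, and 5.49 and 3.27 CPM in siNeg. Both siTfap4 libraries lay below both siNeg libraries, with a log2 fold change of -1.54 (SE 0.52, adjusted p = 0.0607, edgeR) against 2.02 for the member.

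Snord72 (ENSMUSG00000077737), a box C/D RNA gene in an intron of the ribosomal protein gene Rpl37, had 0.248 and 0.117 CPM in siTfap4, 2.32 and 0.573 CPM in siWiz, 2.70 and 2.26 CPM in siZic2, and 1.66 and 1.15 CPM in siNeg. The siTfap4 values are 2 counts and 1 count, against 20 and 12 counts in siNeg, and they lay below all other libraries. The summed level in siTfap4 was 12.7% of that in siNeg (exact 95% interval 2.48 to 40.5%, counting error only). The fitted log2 fold change was -2.89 (SE 0.91, adjusted p = 0.0465, edgeR). The call rested on small counts, and it was lost without any 1 of 6 libraries: the adjusted p was then 0.175 and 0.140 without siTfap4 replicate 1 and 2, 0.0684 and 0.0670 without siZic2 replicate 1 and 2, and 0.188 and 0.0651 without siNeg replicate 1 and 2. Rpl37 had a log2 fold change of 0.10 (SE 0.35, adjusted p = 0.872, edgeR) in siTfap4.

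Among members that did not pass the test in siTfap4, Snord13 and Snora30 came closest. Snord13 had 11.2 and 8.44 CPM in siTfap4, 4.01 and 5.35 CPM in siWiz, 4.50 and 3.33 CPM in siZic2, and 4.82 and 4.52 CPM in siNeg. The siTfap4 libraries lay above all others (log2 1.07, SE 0.35, adjusted p = 0.0540, edgeR). DESeq2 gave an adjusted p of 0.0480, and without siTfap4 replicate 2 edgeR gave 0.0414, so the call for Snord13 depends on the test used and on that library. It has no host gene by the rule used here.

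Snora30 had 5.46 and 4.81 CPM in siTfap4, 1.43 and 2.48 CPM in siWiz, 0.970 and 2.37 CPM in siZic2, and 1.25 and 2.11 CPM in siNeg. It was named after its values were seen. The siTfap4 libraries again lay above all others (log2 1.61, SE 0.53, adjusted p = 0.0535, edgeR), and DESeq2 gave an adjusted p of 0.0411. With DESeq2 3 of 24 members were thus called higher, Snord89, Snord13 and Snora30, against 6.06% of all genes, and Snord72 was called lower, against 12.6% (18.7% in either direction). Its host Gm42715 had a log2 fold change of 1.09 (SE 0.39, adjusted p = 0.0739, edgeR), in the same direction, and DESeq2 gave it an adjusted p of 0.0407. Gm25133, a gene 98.5% identical to Snora30, had 0 counts.

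Snord49b, also named after its values were seen, had 9.55 and 6.45 CPM in siTfap4, 1.16 and 4.68 CPM in siWiz, 2.29 and 2.15 CPM in siZic2, and 3.82 and 3.56 CPM in siNeg. The siTfap4 libraries lay above all others, with a log2 fold change of 1.11 (SE 0.51, adjusted p = 0.146, edgeR) that was not called. Its host 2410006H16Rik, which also holds Snord65 and Snord49a, had a log2 fold change of -0.26 (SE 0.27, adjusted p = 0.533).

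Over all 36 members fitted without the expression filter, 26 had a log2 fold change above 0 and 10 below 0 in siTfap4, with a median of 0.64 and a range of -4.92 to 1.99. Over the 19046 genes of that fit the median was -0.02 and 49% lay above 0. Of the 22 box C/D members 15 lay above 0, with a median of 0.66 over all 22. Of the 14 box H/ACA members 11 lay above 0, with a median of 0.55 over all 14. Most of these members did not pass the test, and a median is not a test of the list. In the same fit Snord89 and Snord72 were the members called, against 2.66% of all genes called higher and 9.31% called lower.

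Counted by library, both siTfap4 values lay above both siNeg values in 14 of 36 members (26.7% of 19046 genes), of which 10 were C/D and 4 H/ACA genes. They were Snora23, Snora30, Snora41, Snora78, Snord118, Snord13, Snord37, Snord43, Snord49b, Snord65, Snord73a, Snord83b, Snord87 and Snord89. Both siTfap4 values lay below both siNeg values in 4 of 36 members (27.4% of 19046 genes), Snora19, Snord35a, Snord7 and Snord72. Snord7, which guides methylation of a spliceosomal RNA, had 0 counts in siTfap4 and 8 in siNeg (7 and 1), with 5 and 0 in siWiz. The exact 95% interval of its siTfap4 level reaches up to 79.2% of that in siNeg. That interval covers counting error alone and not the gap between the siNeg libraries. Snord35a, a box C/D RNA from an Rpl13a intron that in rodent cells has been tied to lipotoxic stress, had 3 counts in siTfap4 and 12 in siNeg, 33.8% of the siNeg level with an exact interval of 6.12 to 125%.

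**Figure D3:**
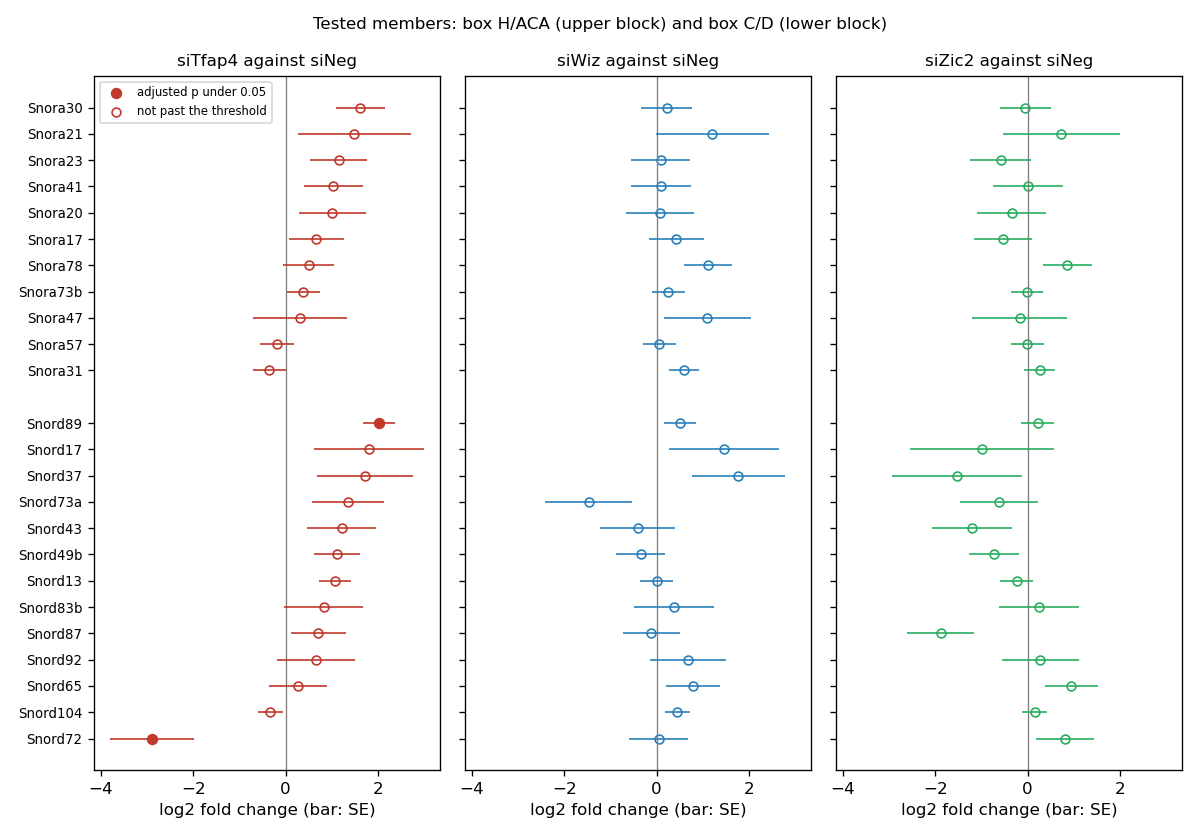
Log2 fold change (horizontal axis, bars are standard errors) of the 24 tested members against siNeg for siTfap4, siWiz and siZic2, with box H/ACA members above box C/D members and filled points for adjusted p under 0.05. Filled points appear for Snord89 (2.02) and Snord72 (-2.89) in siTfap4 and for no member in siWiz or siZic2.

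The summed level of the members, in which Snora73b had the largest share, varied between replicates. It was 210 and 231 CPM in siTfap4, 157 and 220 CPM in siWiz, 132 and 180 CPM in siZic2, and 114 and 196 CPM in siNeg, which is 0.012 to 0.0223% of each library. The box C/D sum was steadier: 75.0 and 71.5 CPM in siTfap4, 47.8 and 57.9 CPM in siWiz, 45.0 and 43.6 CPM in siZic2, and 41.7 and 44.3 CPM in siNeg. Both siTfap4 values of the box C/D sum lay above those of the other 6 libraries. Means were 73.3 ± 2.47 CPM in siTfap4 and 43.0 ± 1.88 CPM in siNeg (SD, n = 2 each). Snord89 alone accounts for 27.6 CPM of the siTfap4 mean and 6.78 CPM of the siNeg mean. The box H/ACA sum without Snora73b was 30.6 and 40.6 CPM in siTfap4, 25.6 and 40.4 CPM in siWiz, 22.5 and 30.6 CPM in siZic2, and 19.8 and 32.5 CPM in siNeg, and each siPOOL group overlapped siNeg. The libraries come from bulk cells, in which fewer cells carrying an RNA and less of it per cell cannot be told apart.

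**Figure D4:**
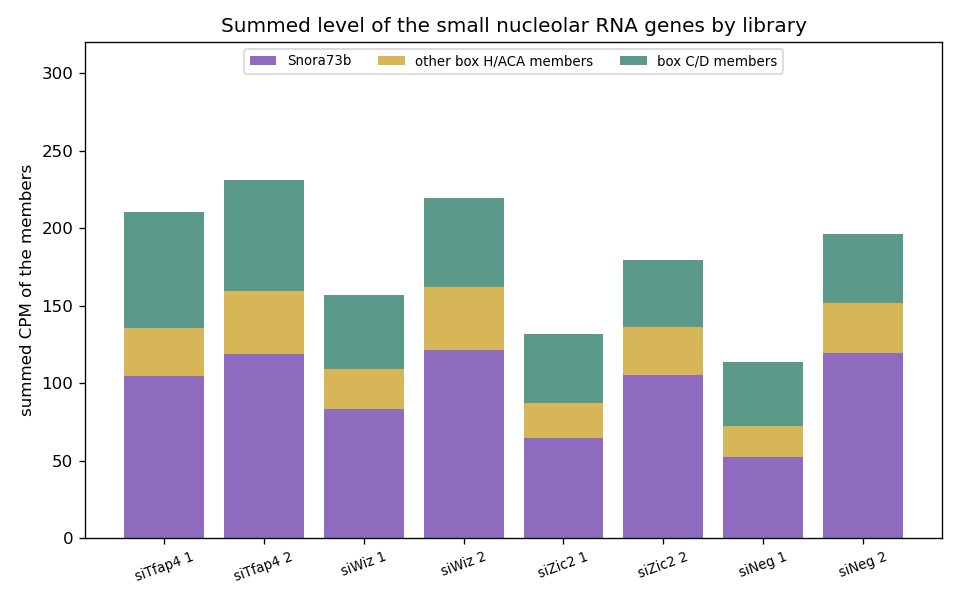
Summed TMM-scaled CPM of the 36 members (vertical axis from 0) in each of the 8 libraries (horizontal axis), split into Snora73b, the other box H/ACA members and the box C/D members. Snora73b takes 46.1 to 60.8% of the members' counts in each library, and the box C/D part is 71.5 to 75.0 CPM in siTfap4 and 41.7 to 44.3 CPM in siNeg.

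Of the 27 hosts, 1 was called higher and 6 lower in siTfap4, against 4.24% and 11.7% of all genes. The host called higher was Snhg9, a non-coding host of Snora78 (log2 1.14, adjusted p = 0.0149, edgeR), and this call was lost without siTfap4 replicate 1 or siNeg replicate 1. Rcc1, the exchange factor of the small GTPase Ran and the host of Snora73b by the rule used here, had 6.20 and 21.8 CPM in siTfap4 and 261 and 199 CPM in siNeg (log2 -4.03, SE 0.45, adjusted p = 0.000415, edgeR). Zbed3, the host of Snora47, had 4.59 and 4.22 CPM in siTfap4 and 31.8 and 15.9 CPM in siNeg (log2 -2.43, SE 0.41, adjusted p = 0.00241, edgeR). Both calls held without any single library. DESeq2 also called the hosts Gm42715 and Wdr43 higher and Rpl3 lower, which made 3 hosts higher and 7 lower, against 6.06% and 12.6% of all genes. The number of hosts called changed when any library of siTfap4 or siNeg was left out. So did the number of all genes called.

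Snhg6 (log2 -3.54, adjusted p = 0.0106), the importin gene Ipo7 (-1.45, adjusted p = 0.00553), the ribosomal protein gene Rpl39 (-1.55, adjusted p = 0.0282) and Tpt1, a translationally controlled tumour protein gene (-1.22, adjusted p = 0.0241), also fell by edgeR. Each lost its call without siTfap4 replicate 1, and Snhg6 also without siNeg replicate 1, Rpl39 and Tpt1 also without siNeg replicate 2. Of the members in these 6 hosts, Snora73b (Rcc1) had a log2 fold change of 0.38 (SE 0.35) and Snora47 (Zbed3) 0.31 (SE 1.02). Snord87 (Snhg6) had 0.71 (SE 0.60), Snora23 (Ipo7) 1.15 (SE 0.62) and Snora31 (Tpt1) -0.35 (SE 0.35). Snora69 (Rpl39) did not reach the filter and had 0.04 in the fit without it, on 3 and 4 counts in siTfap4. None of the tested members among them passed the test, and Snora47 had 1 and 13 counts in siTfap4. Snora73b also lies within the span of the non-coding gene Snhg3, which had a log2 fold change of 0.76 (SE 0.27, adjusted p = 0.0731).

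Over the 31 members with a host, the log2 fold change in siTfap4 was higher in the member than in the host for 22 and lower for 9 in the fit without the expression filter, with a median difference of 0.87. Member and host had the same sign in 12 of 31. Pearson's r between the 2 fold changes across the 31 members was -0.07, given as a description, since members share libraries and some share a host. In siWiz and siZic2 none of the 27 hosts was called (0% of all genes), and member and host had the same sign in 14 and 13 of 31.

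**Figure D5:**
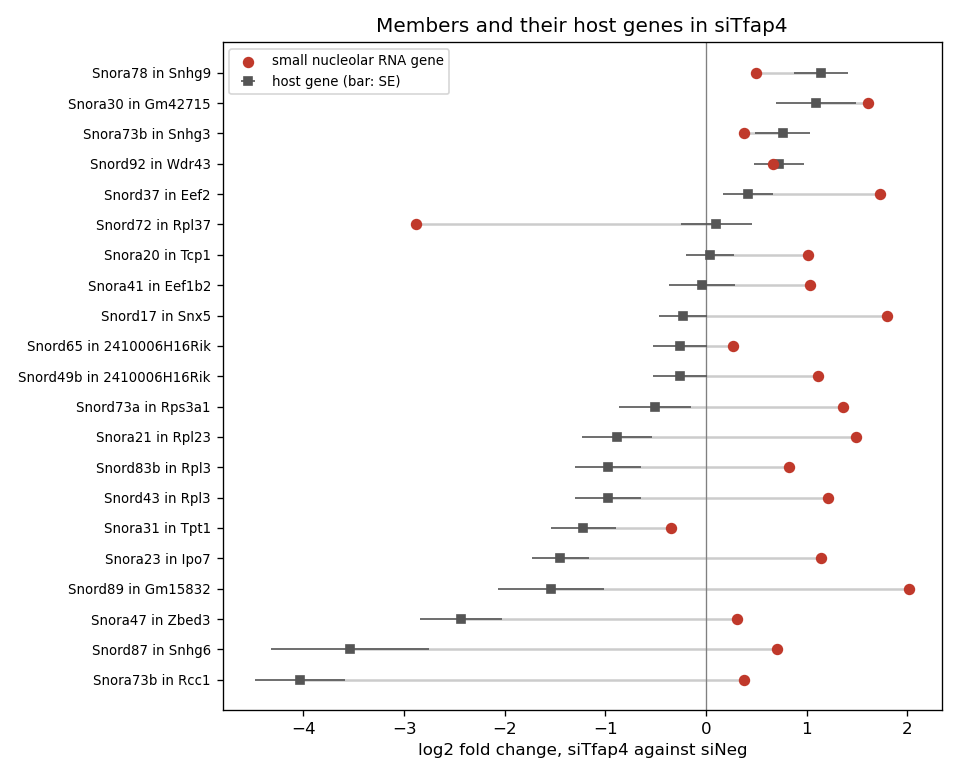
Log2 fold change in siTfap4 against siNeg (horizontal axis) of tested members (circles) and of the hosts that contain them (squares, bars are standard errors), sorted by the host's value, with Snora73b shown beside both Rcc1 and Snhg3. At the lower end the hosts reach -4.03 (Rcc1) while their members lie at -0.35 or above, and Snord72 at -2.89 stands far below its host Rpl37 at 0.10.

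The siWiz and siZic2 libraries gave no call among the 24 tested members, and 0% of the 14647 genes tested passed the threshold in either comparison. For siWiz, 0 of 24 members had an unadjusted p under 0.05 by edgeR and 0 were called by DESeq2. Over all genes, 266 had such an unadjusted p, and DESeq2 called 1 gene, which was lower (0.00683%). For siZic2, 1 of 24 members had an unadjusted p under 0.05 by edgeR and 0 were called by DESeq2, and over all genes the numbers were 86 and 0. That member was Snord87, with 0.346 and 0.215 CPM in siZic2 and 1.33 and 0.865 CPM in siNeg (log2 -1.88, SE 0.72, adjusted p = 1.00, edgeR).

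In siWiz, 23 of 36 members lay above 0 and 13 below, with a median log2 fold change of 0.08, against a median of 0.01 and 51.3% above 0 over all genes. Among the 24 tested members, 20 lay above 0 in siWiz with a median of 0.31, against -0.0011 and 49.8% over the genes tested. All 11 tested box H/ACA members lay above 0, and 11 of 14 without the filter. Members of low level can pass the filter through the libraries in which they are high, so the filtered counts are not free of that selection. In siZic2, 18 of 36 lay above and 18 below 0, with a median of -0.02, against 0.01 and 51.8% over all genes. Values of the 2 libraries did not overlap those of siNeg in 4 members higher (12.9% of all genes) and 3 lower (13.6%) in siWiz, and in 4 members higher (13.1%) and 7 lower (12.4%) in siZic2. Snora78 and Snord65 were higher in all 3 siPOOL groups by this count. The share of all genes higher in all 3 was not counted, so this does not set these 2 members apart. Snora78 had 1.61 and 1.41 CPM in siTfap4, 1.87 and 2.77 CPM in siWiz, 1.94 and 1.94 CPM in siZic2, and 1.16 and 0.961 CPM in siNeg. The 3 groups share the siNeg libraries, and none of these differences passed the test.

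Proteins that make and hold small nucleolar RNAs were read from 4 lists. In siTfap4 the share of all genes called was 4.24% higher and 11.7% lower. Of the 4 box C/D core proteins, 1 fell in siTfap4, Fbl, the methyltransferase fibrillarin, at 16.7 and 39.3 CPM in siTfap4 and 50.5 and 91.2 CPM in siNeg (log2 -1.34, SE 0.37, adjusted p = 0.0278, edgeR). This call was lost without siTfap4 replicate 1 or siNeg replicate 2, and the median of the list was 0.03. Of the 4 box H/ACA core proteins, 1 fell, Gar1, at 6.45 and 21.6 CPM in siTfap4 and 145 and 108 CPM in siNeg (log2 -3.17, SE 0.46, adjusted p = 0.0011, edgeR). The siTfap4 libraries lay below all others for Gar1, and the call held without any single library. Dkc1, the pseudouridine synthase dyskerin, had a log2 fold change of 0.62 (adjusted p = 0.0819, edgeR), which DESeq2 called higher (adjusted p = 0.0388), and the median of the list was 0.36.

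Of 12 assembly and localisation factors, 1 rose and 2 fell in siTfap4, against 4.24% and 11.7% of all genes, with a list median of 0.24. Shq1, a chaperone of dyskerin, had 5.33 and 5.04 CPM in siTfap4 and 20.4 and 22.8 CPM in siNeg (log2 -2.06, adjusted p = 0.000827, edgeR), and held without any single library. Ruvbl2, an ATPase of the assembly complex, fell by 1.22 on the log2 scale (adjusted p = 0.00922), a call lost without siTfap4 replicate 1. Znhit6, a box C/D assembly factor, rose by 0.78 (adjusted p = 0.0494, edgeR), a call lost on leaving out any library other than siTfap4 replicate 2. Scaled by library totals alone, or fitted without the expression filter, Znhit6 was not called either.

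Of 23 debranching and end trimming factors, 1 rose and 6 fell in siTfap4, against 4.24% and 11.7% of all genes, with a list median of -0.27. DESeq2 called 1 higher and 8 lower, against 6.06% and 12.6%, the added genes being Exosc2 and Exosc7. The deadenylase gene Toe1 had 13.0 and 15.2 CPM in siTfap4 and 38.5 and 33.6 CPM in siNeg (log2 -1.35, adjusted p = 0.00459, edgeR), a call that held without any single library. Exosc3, an exosome subunit, fell by 2.66 (adjusted p = 0.00713) and Tent4a, a non-canonical poly(A) polymerase, by 1.31 (adjusted p = 0.0124), both lost without siTfap4 replicate 1 and Exosc3 also without siNeg replicate 1. Exosc5, another exosome subunit named after its values were seen, rose by 0.92 (adjusted p = 0.0483, edgeR), a call lost without siTfap4 replicate 1 or any library of siZic2 or siNeg. Library totals alone, or the fit without the expression filter, also gave no call for Exosc5. The other genes that fell, Parn, Rbm7 and Pabpn1, lost their calls without siTfap4 replicate 1 or siNeg replicate 1. In siWiz and siZic2, edgeR called 0 genes of these 4 lists, DESeq2 likewise 0, and 0 of them had an unadjusted p under 0.05.

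Other short RNA genes gave 5 tested genes, and none passed the test in siTfap4 (0 of 5, against 15.9% of all genes). The Cajal body RNAs had log2 fold changes of 2.18 for Scarna2 (adjusted p = 0.0587), 1.63 for Scarna9 (adjusted p = 0.0868) and 0.30 for Scarna17 (adjusted p = 0.867), and the spliceosomal Rnu11 had 1.46 (adjusted p = 0.202) and Rn7sk 0.66 (adjusted p = 0.405), by edgeR. All 5 were above 0 in siTfap4. So were 20 of the 24 tested members, against 50.6% of the genes tested, and 20 of 24 in siWiz, against 49.8%. A gene of low level can pass the expression filter through the libraries in which it is high, so the filter may favour such values. Without the filter, 26 of 36 members lay above 0 in siTfap4 and 23 of 36 in siWiz.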

How the data were processed

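The deposited table holds raw counts per gene, not normalized, which the authors made from QuantSeq 3′ reads; Trim Galore and GRCm38 are named in the submitters' processing notes. The aligner, the annotation and the counting settings, strand included, were not given in the sources used here. An antisense partner or near-identical copy could therefore share reads with a member. Snord42a and Snord4a lie opposite exons of Tlcd1, and Snora73b opposite an exon of Gm17300, which had 0 counts. Of 55421 Ensembl identifiers, 55154 matched a symbol in GENCODE M21 and 267 did not.

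Counts were scaled by TMM and fitted with edgeR 4.0.16 in R 4.3.3 (quasi-likelihood test, 1 mean per group over all 8 libraries, filterByExpr with a minimum count of 10). Benjamini-Hochberg adjustment ran over all 14647 genes tested, with a threshold of 0.05, and the common biological coefficient of variation was 22.2%. The alternatives were RLE size factors, library totals, no filter beyond 10 counts, a replicate block, DESeq2 1.42.0, another host rule and leaving out each library; the fit was tested on simulated data. CPM are TMM-scaled, and p-values set the difference between groups against the spread between the libraries, which may be partly technical. Exact 95% intervals cover counting error alone. Replicates differed by more than sampling noise (chi-square per degree of freedom 19.6 to 42.0).

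The members and lists were chosen with earlier results of these data known. Full statistics were given for members called in any comparison and for the 6 members with the highest mean CPM. A host is the gene on the same strand whose span holds the member, protein-coding first, then the shortest. Sequences come from the GENCODE M21 transcripts.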

Additional observations from a re-analysis of the deposited data

How the results depend on the processing

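Snord89 kept its direction and its call in siTfap4 under all 13 alternatives, with log2 fold changes of 1.79 to 2.29. The count of members called higher in siTfap4 was 1, and 3 with the replicate block and 3 with DESeq2, the added members being Snord13 and Snora30 in both (7.83% of all genes were called higher with the block); leaving out each library gave 1 to 2. The count called lower was 1, and 0 to 1 with a library left out. Over all genes in siTfap4, 2330 were called, 3243 with the replicate block, and 469 to 3369 with a library left out, the lowest without siTfap4 replicate 1 and then 803 without siNeg replicate 1. With the block 3 hosts were called higher and 9 lower in siTfap4, against 7.83% and 14.3% of all genes. DESeq2 called 1 gene in siWiz where edgeR called 0. The shared numbers of the libraries are not stated to mark a common day or batch; the correlation of same-numbered deviations ran from -0.04 to 0.33 over the 6 pairs of groups, so the block is given as an alternative only. The host of Snora73b, Rcc1 at -4.03 in siTfap4, gave 0.76 when the shortest host, Snhg3, was taken. The other changes of sign were in values that were not called, and their cause was not tested. With the block, Snord72 in siWiz gave -0.0538, Snora73b in siZic2 0.0369 and Snora57 in siZic2 0.0271. With library totals, Snord13 in siWiz gave -0.0195, Snora73b in siZic2 0.0200 and Snora57 in siZic2 0.0216. Without the filter, Snora73b and Snora57 in siZic2 gave 0.0007 and 0.0088, and Snora57 in siZic2 gave 0.0008 with RLE and 0.0007 with DESeq2. With a library left out, ranges that crossed 0 were in siTfap4, -0.11 to 1.09 for Snora73b, -0.65 to 0.0513 for Snord104, -0.67 to 0.17 for Snora57; in siWiz, -0.0818 to 0.94 for Snord89, -1.27 to 0.71 for Snord72, -0.21 to 0.97 for Snora73b, -0.22 to 0.41 for Snora57, -0.22 to 0.21 for Snord13; in siZic2, -0.0177 to 0.51 for Snord89, -0.48 to 0.70 for Snora73b, -0.14 to 0.53 for Snord104, -0.28 to 0.34 for Snora57. Low depth limits the 12 untested members, at 10 to 46 counts in all.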

Other observations

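Annotated small nucleolar RNA genes under other symbols, of which 66 had 10 or more counts, were read in the fit without the expression filter. In siTfap4, 50 lay above 0 and 16 below, with a median log2 fold change of 0.73, and 1 was called higher and 3 lower, against 2.66% and 9.31% of the 19046 genes of that fit. In siWiz 43 lay above 0 and 22 below, with a median of 0.32, and in siZic2 37 above and 29 below, with a median of 0.07. None was called in siWiz or siZic2.

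The 2 libraries of a group differed in the same direction in all 4 groups for some members. Replicate 2 lay above replicate 1 in all 4 groups in 9 of 36 members, or 25%, against 11.0% of 19046 genes. They were Snora20, Snora21, Snora23, Snora41, Snora47, Snora57, Snora73b, Snord17 and Snord49a, that is 7 of 14 box H/ACA members and 2 of 22 box C/D members. Replicate 1 lay above replicate 2 in all 4 groups for Snord118, Snord72 and Snord92, 3 of 36 members, against 11.1% of all genes. Snora20, for example, had 1.98 and 5.39 CPM in siTfap4, 0.892 and 2.96 CPM in siWiz, 0.832 and 2.15 CPM in siZic2, and 0.914 and 2.79 CPM in siNeg.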
